A study of Mus musculus with 12 samples.

Results

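The guanylate-binding proteins are a family of large GTPases, here the 9 genes Gbp2 to Gbp10, taken by their names from a table of 23284 genes. Their levels were measured in type 3 innate lymphoid cells (ILC3s) sorted from the small intestine of HR-1 hairless mice aged 18 weeks, in 12 RNA-sequencing libraries. The PA milk group were pups of dams on the normal diet. After birth they were moved to nurse from dams fed palmitic acid (8% of chow by weight). The ND group had dams fed a normal diet, and the study describes no such move for it. After weaning all animals ate the normal diet. Cells were taken from the intraepithelial (IEL) layer and from the lamina propria (LP) of each, which gave 4 groups (PA IEL, ND IEL, PA LP and ND LP) of 3 libraries. The sort gated lineage-negative cells that carried CD4, Thy1.2, CD25 and Nrp1, although a legend of the study names CD45 in place of CD4. The labels number the libraries 1 to 3 within a group, and whether a number marks 1 mouse in both layers, or how many mice entered a library, is not known. Values are FPKM (fragments per kilobase of transcript, scaled between libraries by a size factor), which can be compared between genes because they are per length.

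Guanylate-binding proteins are made in response to interferons, above all interferon-gamma, whose receptor signals through the kinases Jak1 and Jak2 and induces the transcription factor Irf1. Promoters of such genes hold elements known as GAS (gamma-activated sites) and ISREs (interferon-stimulated response elements), the latter bound by the interferon regulatory factors. The proteins assemble on bacteria and on the vacuoles that hold intracellular pathogens, together with the immunity-related GTPases, and they help inflammasome caspases to sense bacterial products.

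The family lies in 2 blocks in the mouse genome. In GENCODE vM21 on GRCm38 (mm10), 4 of the 9 genes are on the plus strand of chromosome 3, namely Gbp5 (142493978 to 142522344), Gbp7 (142530342 to 142550149), Gbp3 (142560026 to 142573209) and Gbp2 (142620602 to 142638008). The other 5 are on the minus strand of chromosome 5, namely Gbp8 (105014150 to 105139540), Gbp9 (105077630 to 105139539), Gbp4 (105115767 to 105139586), Gbp10 (105215699 to 105239533) and Gbp6 (105270702 to 105293698). The annotated Gbp4, Gbp8 and Gbp9 overlap and share exon bases on the same strand. Of the 50-base windows in the transcripts of Gbp10, 76.2% also occur in a transcript of another Gbp gene, and the same holds for 49.9% of those of Gbp6. This share was 18.1% for Gbp8, 8.05% for Gbp9, 7.53% for Gbp4 and between 0% and 3.75% for the 4 genes of chromosome 3. Values of Gbp6 and Gbp10, and of Gbp4, Gbp8 and Gbp9, are therefore uncertain as to which gene a fragment came from, and the 4 genes of chromosome 3 are the ones least open to that.

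Promoters are shown for the members with a matched window, to place the interferon elements in them. RefSeq promoter windows on GRCm38.p6 were matched for the 4 genes of chromosome 3 and not for Gbp4, Gbp6, Gbp8, Gbp9 and Gbp10, with 2 starts for Gbp3, which makes 5 windows of 250 bases before the start. The ISRE core was searched as GAAANNGAAA on both strands, and the GAS element as TTCNNNGAA, which reads the same on both strands. All 4 genes had the ISRE core in a window, in each case on the strand opposite to the gene, as TTTC, 2 bases and TTTC. GENCODE starts Gbp2 earlier than RefSeq, so that the last 61 bases of its window, the match included, lie in its first exon there. The whole Gbp5 window lies inside the gene as GENCODE places it, with 34 of its bases in exons. The Gbp3 windows hold 18 exon bases and, at the second start, 178. Over all 32851 promoter windows of the same length, 2.98% held the ISRE core. The match is in capitals in the following stretches of 30 bases, read 5′ to 3′ on the strand of the gene.
Gbp2, chr3:142620594-142620623, match 59 to 50 bases before the start: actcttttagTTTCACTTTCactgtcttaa
Gbp3, chr3:142559992-142560021, overlapping matches 45 to 30 bases before the start: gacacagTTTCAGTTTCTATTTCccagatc
Gbp5, chr3:142496759-142496788, match 165 to 156 bases before the start: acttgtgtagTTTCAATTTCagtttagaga
Gbp7, chr3:142530273-142530302, match 53 to 44 bases before the start: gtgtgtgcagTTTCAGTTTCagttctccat

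The GAS element was found in the windows of Gbp5 and Gbp7, with 2 matches each, and 7.02% of all windows held it. These letters were in none of the windows of Gbp2 and Gbp3. In Gbp7 both kinds of element lie in the last 106 bases before the start. Its whole window, chr3:142530086-142530335 on the plus strand, is shown with the GAS and ISRE matches in capitals, since Gbp7 is also a gene that the study displayed for PA LP.
Gbp7 window: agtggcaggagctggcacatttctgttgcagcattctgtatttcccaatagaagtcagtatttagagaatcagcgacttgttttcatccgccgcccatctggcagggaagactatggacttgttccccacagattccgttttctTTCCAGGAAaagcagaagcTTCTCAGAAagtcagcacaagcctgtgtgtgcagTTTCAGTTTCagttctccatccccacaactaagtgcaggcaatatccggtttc

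**Figure D1:**
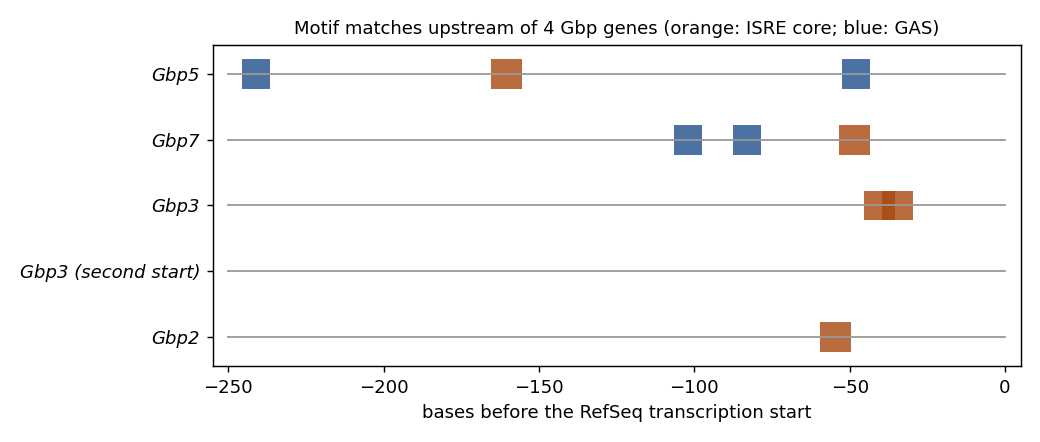
Motif matches in the 250 bases before the RefSeq starts of the 4 Gbp genes of chromosome 3, on an axis in bases before the start. Orange boxes are matches to the ISRE core and blue boxes to the GAS element. Gbp2, Gbp3 and Gbp7 have the ISRE core within 60 bases of a start, Gbp5 has it 165 bases away, and the second start of Gbp3 has no match.

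The libraries held 8.80 to 14.55 M reads (M, 1000000), as worked out from the steps between low values, and between 4390 and 11378 genes at an FPKM of 1 or more. PA IEL replicate 2 and PA LP replicate 2 had the fewest genes, 4390 and 5637, and of the 12502 genes tested 65.2% and 55.8% were under 1 FPKM in them, against 13.5% to 38.3% in the other 10. The results of the 9 genes on PA milk are therefore also given without PA LP replicate 2 or without both. The label of the cells was checked against markers. The summed FPKM of 16 ILC3 markers was 296 to 2438 in IEL and 108 to 7060 in LP, with the lowest value in PA LP replicate 2. Il7r, a receptor chain that innate lymphoid cells need, was at 10.6 FPKM or more in 9 of the 12 libraries and at 0.0242 in PA IEL replicate 2, 0.0304 in PA LP replicate 2 and 0 in ND LP replicate 1. Genes of T cells, B and plasma cells, macrophages and epithelium were also present, so the libraries are called by their labels. Messenger RNA of fewer expressing cells cannot be told apart from less of it per cell.

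All 9 members reached an FPKM of 1 in at least 3 libraries and were tested. Their summed FPKM was 47.1, 13.9 and 43.9 in the 3 ND IEL libraries and 316, 329 and 166 in the 3 ND LP libraries. In PA milk the sum was 75.0, 27.4 and 22.1 in IEL and 655, 0.174 and 1014 in LP. The family was thus higher in every LP library than in every IEL library, with the exception of PA LP replicate 2. In that library only 7 reads fell on the 9 genes together, while PA LP replicates 1 and 3 had 30341 and 39935 and the ND LP libraries 6205 to 14651. PA LP thus held the library with the fewest reads on the family and the 2 with the most.

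**Figure D2:**
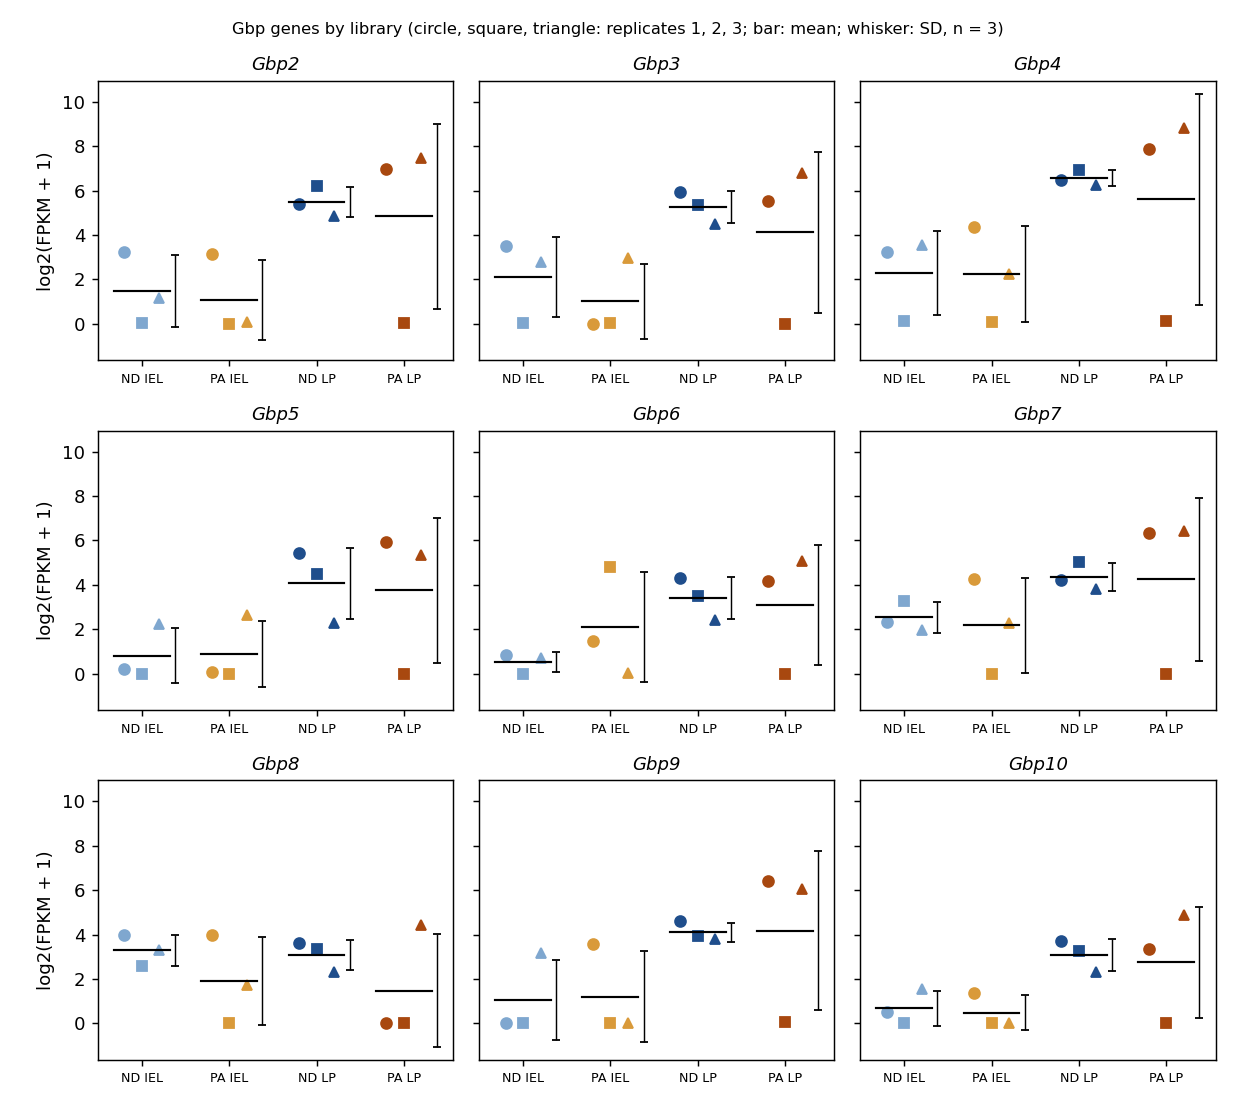
The log2(FPKM + 1) of each of the 9 Gbp genes in the 12 libraries, by group, with replicates 1, 2 and 3 as circle, square and triangle, the mean as a bar and the SD as a whisker (n = 3). The ND LP points lie above the ND IEL points for every gene but Gbp8, and the square of PA LP lies at or near 0 for all 9 genes.

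In mice on the normal diet, the family was higher in LP than in IEL. Every ND LP library was above every ND IEL library for 8 of the 9 genes, the exception being Gbp8, and 9.34% of all genes tested had that order. The median log2 fold change of the 9 genes, LP minus IEL, was 3.05, and that of all genes 0.09. Of the ND libraries, ND IEL replicate 2 had the fewest genes at 1 FPKM, 7863, and 7 of the 9 members were under 1 FPKM in it. Leaving out 1 library at a time gave medians of the members from 2.525 to 3.486. By limma's test on log2(FPKM + 1), Gbp2 and Gbp4 had an unadjusted p under 0.05, as had 3.64% of all genes in that direction. After Benjamini-Hochberg adjustment over 12502 genes, limma called none of the 9 members and 4 genes in all, 0.032%. With 3 libraries against 3, the exact permutation test of a single gene cannot go below p = 0.1, and these 8 genes reached it.

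Gbp2 is a member with a lipid anchor that is recruited to the vacuoles of intracellular parasites. Its FPKM was 8.31, 0.0347 and 1.24 in ND IEL and 41.4, 72.1 and 28.1 in ND LP. The LP libraries were all above the IEL libraries, and the group means differed 14.8-fold. The log2 fold change was 4.01 ± 1.73 (SE), with an adjusted p from limma of 0.661. Gbp5, the other member with a lipid anchor and one known to promote inflammasome assembly, was at 0.137, 0 and 3.76 in ND IEL and at 42.1, 21.3 and 3.90 in ND LP. Its groups came within 1 library of each other, since ND LP replicate 3 lay just above ND IEL replicate 3. The log2 fold change of Gbp5 was 3.25 ± 1.55 (SE), with an adjusted p from limma of 0.764.

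Gbp7, which acts in defence against intracellular bacteria and parasites, had the smallest difference of the 8 genes. It was at 4, 8.77 and 2.94 FPKM in ND IEL and at 17.5, 31.7 and 13.1 in ND LP, which are means 3.97-fold apart. It was the only gene of chromosome 3 present in all 3 ND IEL libraries above 1 FPKM. Gbp3, its neighbour on chromosome 3, was at 10.2, 0.0321 and 5.98 in ND IEL and at 60.0, 39.6 and 21.4 in ND LP. The log2 fold changes were 1.83 ± 1.61 (SE) for Gbp7 and 3.14 ± 1.64 (SE) for Gbp3, with limma's adjusted p at 1 and 0.830.

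Of the block on chromosome 5, Gbp4 was the most abundant in LP. It was at 8.44, 0.0913 and 10.7 FPKM in ND IEL and at 89.2, 122 and 74.7 in ND LP. These ranges are far apart, and Gbp4 had the largest log2 fold change of the family in ND, 4.26 ± 1.85 (SE), with an adjusted p from limma of 0.670. Gbp9 was listed at 0, 0 and 7.86 in ND IEL and at 23.2, 14.2 and 12.7 in ND LP. Gbp6, which like Gbp7 and Gbp10 has been tied to defence against mycobacteria, was at 0.783, 0 and 0.648 in ND IEL and at 18.9, 10.2 and 4.38 in ND LP. Gbp10 was at 0.407, 0 and 1.896 in ND IEL and at 12.03, 8.62 and 3.89 in ND LP. The log2 fold changes of these 3 genes were 3.05, 2.89 and 2.41, with limma's adjusted p between 0.788 and 0.859.

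Gbp8 did not share this order. Its FPKM was 14.8, 4.95 and 8.94 in ND IEL and 11.2, 9.15 and 3.98 in ND LP, so the groups overlapped throughout. The log2 fold change was -0.20 ± 1.40 (SE), with an adjusted p from limma of 1. In ND IEL, Gbp8 had the highest median of the 9 genes, 8.94 FPKM, and in ND LP it ranked eighth with 9.15.

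In PA milk mice, LP was again higher than IEL by the fitted values for 8 of the 9 genes and 51.1% of all genes, but 1 library kept the groups from separating. The median log2 fold change of the members was 2.86, against 0.03 for all genes, and only Gbp2 had an unadjusted p under 0.05, as had 5.7% of all genes in that direction. No member was called by limma after adjustment, against 18 genes in all, 0.144%. No member had all PA LP libraries above all PA IEL libraries, an order shown by 4.51% of all genes. Gbp2 was at 7.87, 0 and 0.0702 FPKM in PA IEL and at 127, 0.0406 and 179 in PA LP. Its log2 fold change was 3.77 ± 1.73 (SE), with an adjusted p from limma of 0.456. Gbp4 was at 19.9, 0.0511 and 3.75 in PA IEL and at 232, 0.107 and 452 in PA LP, with a log2 fold change of 3.38 ± 1.85 (SE) and an adjusted p from limma of 0.532. In both genes, replicate 2 of PA LP was as low as the lowest IEL libraries and the other 2 PA LP libraries were the highest of the series.

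Without PA LP replicate 2, the layers separated in PA milk as well. Then 7 of the 9 genes had both PA LP libraries above all 3 PA IEL libraries, the exceptions being Gbp6 and Gbp8, and 15.7% of all genes had that order. The log2 fold change was positive for all 9 and for 56% of all genes, with a median of 4.74 against 0.23 for all genes. Gbp2, with 6.16 ± 1.29 (SE) and an adjusted p of 0.0255, and Gbp4, with 6.11 ± 1.32 (SE) and an adjusted p of 0.0292, passed limma's test, as did 289 genes in all, 2.31%. The change of Gbp6 was held back by PA IEL replicate 2, in which it was at 27.3 FPKM and 1535 reads, while no other member exceeded 0.0511 FPKM there. Without that library as well, Gbp6 had both PA LP libraries above both PA IEL libraries, and its log2 fold change moved from 2.52 to 3.88, with an adjusted p from limma of 0.0897. With PA IEL replicate 2 alone left out, the log2 fold changes of all members but Gbp6 were lower than with all libraries. They were 3.23 for Gbp2 and 2.30 for Gbp4, against 2.34 for Gbp6. The smallest adjusted p from limma among the 9 was then 0.528, for Gbp2.

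A comparison of LP with IEL averaged over both milks, 6 libraries against 6, was added after the values were seen. With all 12 libraries, 6 members (Gbp2, Gbp3, Gbp4, Gbp5, Gbp9 and Gbp10) had an unadjusted p under 0.05 with higher values in LP, as had 7.34% of all genes. None passed limma's test after adjustment, the smallest adjusted p being 0.151 for Gbp2, and 110 genes in all did, 0.88%. The exact permutation test over the 12 libraries gave p = 0.0173 for Gbp2, Gbp9 and Gbp10, and p = 0.773 for Gbp8. Without PA LP replicate 2, limma called 6 members after adjustment (Gbp2, Gbp3, Gbp4, Gbp5, Gbp9 and Gbp10), with 521 genes called in all, 4.17%. Their log2 fold changes were between 3.03 and 5.18, and their adjusted p-values between 0.00433 and 0.0270. Without the 2 libraries with the fewest genes, all members but Gbp8 were called, with 826 genes in all, 6.61%.

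**Figure D3:**
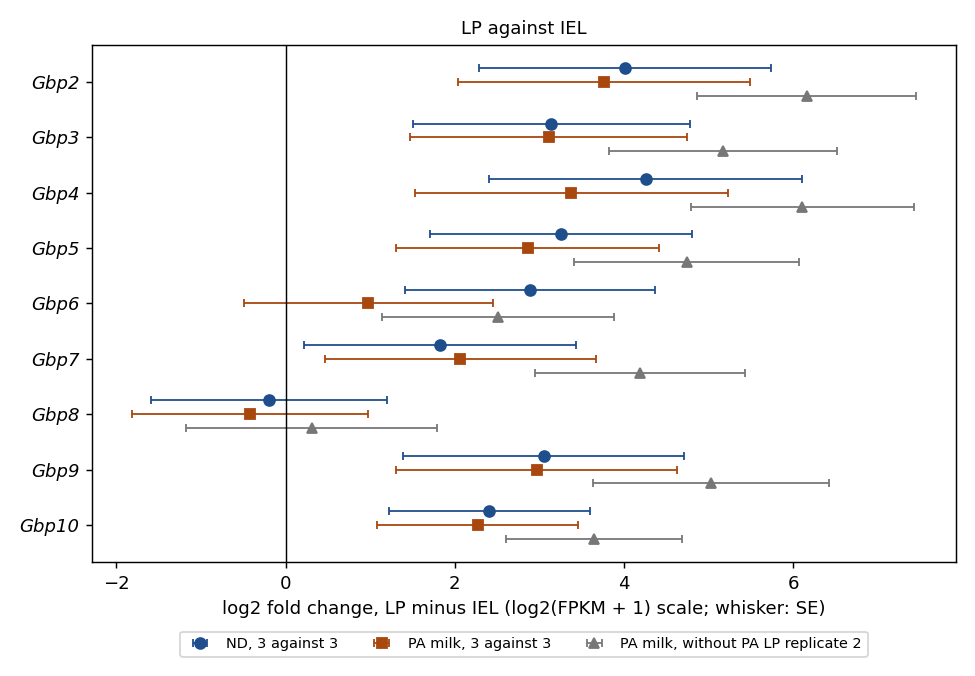
Fitted log2 fold change, LP minus IEL, of each Gbp gene on the log2(FPKM + 1) scale, with its SE as a whisker. Blue circles are ND, orange squares PA milk with all libraries, and grey triangles PA milk without PA LP replicate 2. Every gene but Gbp8 lies above 0 in all 3, and the grey triangles lie to the right of the squares.

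The members did not follow one another to the same degree. Across the 12 libraries, Spearman's rho of the 28 pairs of members without Gbp8 ran from 0.532 to 0.979, with a median of 0.848. For the 8 pairs with Gbp8 it ran from 0.192 to 0.494. These points share the libraries with few genes and are given as a description. Gbp4 was the most abundant member in the 5 LP libraries other than PA LP replicate 2, at 1.69 to 2.66 times the FPKM of Gbp2, and in ND LP its range did not overlap that of Gbp2, the next gene in the order of medians. Every later pair of neighbours in ND LP overlapped, in the order Gbp2 (41.4), Gbp3 (39.6), Gbp5 (21.3), Gbp7 (17.5), Gbp9 (14.2), Gbp6 (10.2), Gbp8 (9.15) and Gbp10 (8.62), given as median FPKM. In IEL no neighbours were separated in either milk, and 5 different members were the highest in at least 1 of the 6 libraries.

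The comparison of PA milk with ND asks whether nursing by dams fed palmitic acid leaves a mark on these cells in the grown offspring. As the study describes it, only the PA milk pups were moved to other dams. That move and the milk therefore cannot be told apart. In LP, the PA milk libraries were spread to both sides of the ND libraries. The fitted log2 fold change, PA milk minus ND, was between -1.62 and 0.07, above 0 for 1 of the 9 genes and for 37.4% of all genes, with a median of -0.34 beside -0.36 for all genes. Limma called none of the members and 0 of all genes, 0%, and no member had an unadjusted p under 0.05, against 0.664% of all genes higher and 4.04% lower. No member had PA LP and ND LP libraries that did not overlap, whereas 2.97% of all genes had all PA LP libraries above and 6.6% all below.

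The direction of that comparison rested on 1 library. Gbp7 was at 78.7, 0 and 85.1 FPKM in PA LP and at 17.5, 31.7 and 13.1 in ND LP. Gbp9 was at 85.3, 0.0266 and 64.9 in PA LP and at 23.2, 14.2 and 12.7 in ND LP. In both genes PA LP replicates 1 and 3 were well above the highest ND LP library, and replicate 2 was below the lowest. The study displayed these 2 genes as higher in PA LP on the basis of these same libraries, so their direction is not independent evidence. Gbp2 and Gbp4 had the same order, with replicates 1 and 3 of PA LP above every ND LP library and replicate 2 below.

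Without PA LP replicate 2, 8 of the 9 genes had a positive log2 fold change in LP, the exception being Gbp8, against 47.3% of all genes. The median was 1.57, beside -0.05 for all genes. Both remaining PA LP libraries exceeded all ND LP libraries for 4 members (Gbp2, Gbp4, Gbp7 and Gbp9), and 11.7% of all genes had that order. For these 4 genes the log2 fold changes were 1.76 ± 1.29, 1.79 ± 1.32, 2.02 ± 1.24 and 2.14 ± 1.39 (SE). None passed limma's test, since the adjusted p was 1 for all 9, and 0 of all genes were called, 0%. Without both libraries with the fewest genes, Gbp7 had an unadjusted p of 0.0314 and an adjusted p of 0.661 from limma, with the same fold change. Leaving out the low library is thus enough to turn the sign, and with 2 libraries against 3 it is not enough for a call.

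**Figure D4:**
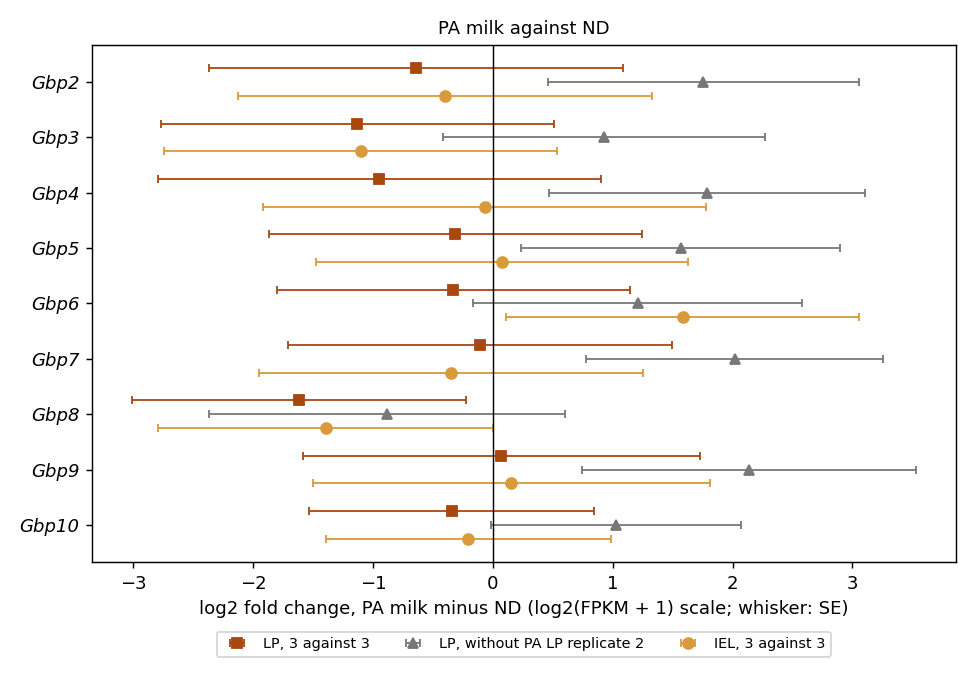
Fitted log2 fold change, PA milk minus ND, of each Gbp gene on the log2(FPKM + 1) scale, with its SE as a whisker. Orange squares are LP with all libraries, grey triangles LP without PA LP replicate 2, and yellow circles IEL. Without that library 8 genes move from near or below 0 to between 0.93 and 2.14, while Gbp8 stays below 0.

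In IEL the members were low in both milks and the groups overlapped for all 9, whereas 2.97% of all genes had every PA IEL library above every ND IEL library and 5.22% every one below. The fitted log2 fold change ran from -1.39 for Gbp8 to 1.58 for Gbp6, with 3 of 9 positive, beside 38% of all genes, and a median of -0.20, beside -0.30 for all genes. None of the members was called by limma, nor any other gene, 0%, and no member had an unadjusted p under 0.05, against 0.752% of all genes higher and 2.82% lower. Gbp6 was at 1.74, 27.3 and 0.0192 FPKM in PA IEL, and without replicate 2, the library with the fewest genes, its log2 fold change fell to 0.22. Gbp8 was at 14.7, 0 and 2.28 in PA IEL, where replicate 1 was close to the highest ND IEL library and the other 2 were below all of them. Without the 2 libraries with the fewest genes, 7 of the 9 log2 fold changes in IEL were positive, with a median of 0.22, beside 50.1% of all genes and a median of 0.0014. The difference of the milk effect between LP and IEL was tested as an interaction and called for no member, the adjusted p from limma being 0.9999 for all 9. No gene at all was called, 0%, and the median of the members was -0.22, or 1.85 without PA LP replicate 2.

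Of the other Gbp genes, the table held Gbp1 and Gbp11. Gbp1 was under 1.4 FPKM in all 6 IEL libraries and at 18.5, 0.242 and 0 in ND LP and 0.417, 0 and 5.88 in PA LP. Gbp11 was listed at 0 in all IEL libraries and was above 1 FPKM only in ND LP replicate 2, at 19.6. Neither showed the order of the members across all LP libraries.

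None of the upstream regulators described here passed limma's test between the layers with all libraries. Ifng itself was listed at 0 in 9 of the 12 libraries and was at 14.2 and 28.2 FPKM in ND IEL replicates 1 and 3 and at 22.2 in PA LP replicate 3. The receptor chain Ifngr1 was at 90.9 to 216 FPKM in IEL and 51.7 to 217 in LP. It was thus present in all 12 libraries, with its lowest value in PA LP replicate 2. Irf1 was at 318, 608 and 315.5 FPKM in ND IEL and 760.5, 942 and 341 in ND LP, which overlap. In PA milk Irf1 was at 260, 106 and 84.8 in IEL and 1174, 107 and 1576 in LP, with a log2 fold change of 2.13 ± 0.80 (SE) and an adjusted p from limma of 0.406. Without PA LP replicate 2, that difference was 3.35 ± 0.56 (SE), and Irf1 passed limma's test with an adjusted p of 0.00701. The receptor chain Ifngr2 had negative log2 fold changes of -0.86 in ND and -0.72 in PA milk. The kinases Jak1 and Jak2, by contrast, were at 0.0895 and 0.0192 FPKM in PA LP replicate 2 and at 0.0572 and 0.0307 in PA IEL replicate 2, the libraries with few genes. Of the 23 tested genes of interferon-gamma signalling, 14 were higher in LP in ND, with a median log2 fold change of 0.19, beside 53.6% of all genes, and 15 in PA milk, with a median of 0.51, beside 51.1%. None was called with all libraries. In PA milk without PA LP replicate 2, 17 of the 23 were higher in LP, beside 56% of all genes, with a median of 1.76. Limma called 3 of the 23 (Cxcl10, Irf1 and Socs3), with a smallest adjusted p of 0.000803, and 2.31% of all genes. In ND the same fit called Cxcl10, an interferon-induced chemokine, with an adjusted p of 0.0132, and 0.52% of all genes.

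The immunity-related GTPases act beside the guanylate-binding proteins on pathogen vacuoles. Of the 9 tested genes for these and other interferon-inducible GTPases, 8 were higher in LP in ND, beside 53.6% of all genes. Their median log2 fold change was 1.604. All 9 were higher in LP in PA milk, beside 51.1% of all genes, with a median of 2.89. With all libraries limma called 1 of them, Iigp1, in PA milk, and 0.144% of all genes. Iigp1 was at 0.150, 0.0533 and 0.116 FPKM in PA IEL and at 539, 27.9 and 585 in PA LP, a log2 fold change of 7.56 ± 1.25 (SE) with an adjusted p of 0.0245. In ND it was at 2.50, 16.2 and 2.42 in IEL and at 369, 242 and 59.4 in LP, with 4.90 ± 1.25 (SE) and an adjusted p from limma of 0.249. Iigp1 thus separated the layers in both milks, PA LP replicate 2 included. Tgtp1 (log2 fold changes 2.43 in ND and 4.27 in PA milk) and Irgm1 (1.604 and 3.93) did not pass the test with all libraries. Neither did Ifi47 (0.81 and 4.84), Irgm2 (0.76 and 2.80) or Igtp (-0.06 and 2.89). Without PA LP replicate 2, all 9 were higher in LP in PA milk with an unadjusted p from limma under 0.05, as were 8.5% of all genes. The median was 4.802. Limma called 3 of the 9 (Iigp1, Gm4951 and Tgtp1), with a smallest adjusted p of 0.00131, and 2.31% of all genes. In ND the same fit called Iigp1, with an adjusted p of 0.0416, and 0.52% of all genes. Without the 2 libraries with the fewest genes, 4 were called in PA milk (Iigp1, Ifi47, Irgm1 and Tgtp2), beside 2.51% of all genes.

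The same GTPases marked where PA LP replicate 2 parted from the rest of its group. In this library Ifi47 was at 252 FPKM, Irgm1 at 45.5, Iigp1 at 27.9, Igtp at 13.7 and Tgtp1 at 8.06, while none of the 9 Gbp genes exceeded 0.107. Of the 9 GTPases tested, 3 were under 1 FPKM there, against 9 of 9 Gbp genes and 55.8% of all genes tested. In PA LP replicates 1 and 3, 8 of the 9 GTPases were above every ND LP library, an order shown by 11.7% of all genes. Ifi47 was above them in all 3 PA LP libraries, at 495, 252 and 537 FPKM against 111, 238 and 66.9, with a log2 fold change of 1.74 ± 1.18 (SE) and an adjusted p from limma of 0.979. Of the 9 GTPases, 8 had a positive log2 fold change between the milks in LP with all libraries, beside 37.4% of all genes. Without PA LP replicate 2 all 9 had one, beside 47.3% of all genes. The medians of the GTPases were 0.87 and 2.08. None of them was called in either fit.

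Of the inflammasome genes through which the guanylate-binding proteins act, 5 of 13 were higher in LP in ND and 6 in PA milk. The shares of all genes were 53.6% and 51.1%. None of the 13 was called with all libraries. The median log2 fold changes, LP minus IEL, were -0.71 and -0.10, beside 0.09 and 0.03 for all genes. The median in PA milk without PA LP replicate 2 was 0.80, beside 0.23 for all genes. In that fit limma called 1 of the 13, Il18, a cytokine that caspase-1 activates, and 2.31% of all genes. Il18 was lower in LP, with a log2 fold change of -4.87 ± 1.033 (SE) and an adjusted p from limma of 0.0266. Casp4, the caspase that senses bacterial lipopolysaccharide, was at 77.3, 0 and 74.5 FPKM in PA LP and at 63.5, 24.8 and 25.6 in ND LP. It therefore had the order of Gbp2 in PA LP, with replicate 2 at 0. Casp1 was at 101 to 149 in ND IEL and 51.7 to 95.7 in ND LP, the opposite direction to the members.

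**Figure D5:**
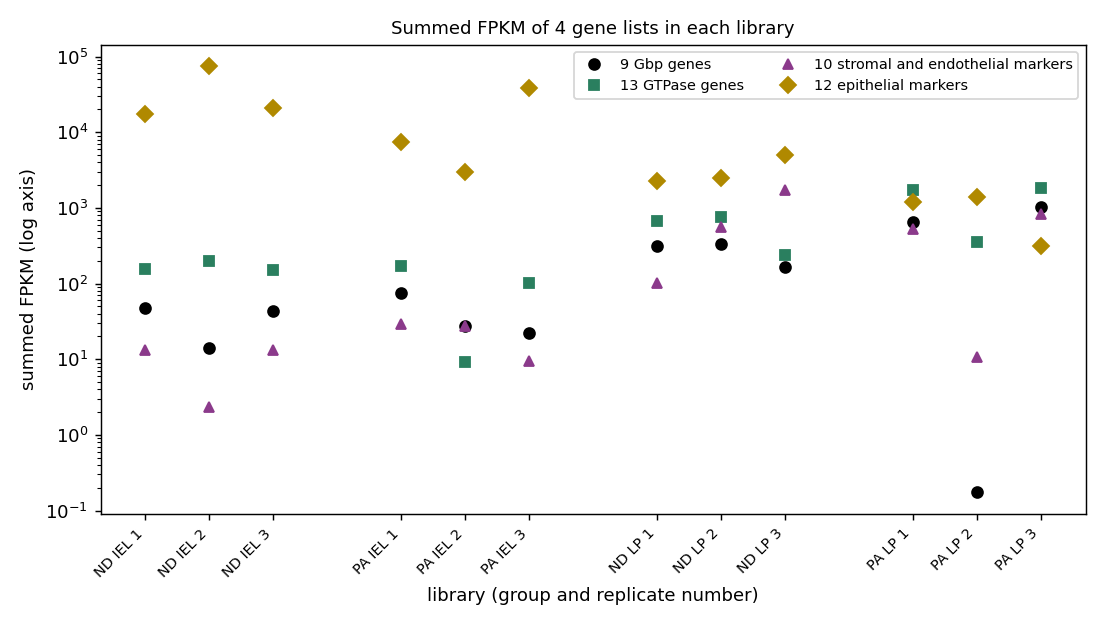
Summed FPKM of 4 gene lists in each library on a log axis, with black circles for the 9 Gbp genes, green squares for 13 GTPase genes, purple triangles for 10 stromal and endothelial markers and yellow diamonds for 12 epithelial markers. The Gbp sum and the stromal and endothelial sum are both higher in LP than in IEL except in PA LP replicate 2, and the epithelial sum is lower in LP.

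Markers of other cells moved with the layers too. The summed FPKM of 10 stromal and endothelial markers was 2.33 to 28.9 in the IEL libraries, 101 to 1740 in ND LP, and 524, 10.7 and 825 in PA LP. Of the 9 tested, all were higher in LP in ND and 8 in PA milk, beside 53.6% and 51.1% of all genes. Their medians were 3.23 and 2.72, and 8 of 9 were under 1 FPKM in PA LP replicate 2, beside 55.8% of all genes. None was called with all libraries. Without PA LP replicate 2, limma called Pecam1 and Cdh5 in PA milk, the smallest adjusted p being 0.0341, and 2.31% of all genes. The median of the 9 was then 4.08, beside 0.23 for all genes. Pecam1, an adhesion molecule of endothelium that leukocytes also carry, was at 1.05 to 26.0 FPKM in IEL, at 85.9, 230 and 113 in ND LP, and at 335, 0.120 and 383 in PA LP. The endothelial cadherin Cdh5 was at or under 1.197 FPKM in every IEL library, at 4.26, 12.03 and 2.78 in ND LP, and at 19.9, 0 and 12.9 in PA LP. Both genes were thus above all IEL libraries in every LP library but PA LP replicate 2, as Gbp2 was. The whole list did not share this order, since only 4 of the 9 tested had every ND LP library above every ND IEL library. The sum of 12 epithelial markers ran the other way, 3012 to 75070 in IEL and 318 to 5018 in LP. The part that these cells had in the levels of the Gbp genes was not tested.

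By Pearson's r of log2(FPKM + 1) over the 12 libraries with the mean standardised level of the 9 members, the 5 nearest genes outside the family were Il6st (0.973), Cysltr1 (0.9698), Procr (0.953), Ebf1 (0.950) and Ppp1r15a (0.950). Among the members r was highest for Gbp10 (0.982) and Gbp4 (0.980) and lowest for Gbp6 (0.701) and Gbp8 (0.449). Each member is part of that mean, which raises its r, so these values cannot be set against those of the genes outside. Il6st, the shared receptor chain of interleukin-6 cytokines, was at 32.4, 36.9 and 17.9 FPKM in ND LP and at 112, 0 and 88.5 in PA LP, and at or under 6.45 in IEL. Procr, the endothelial protein C receptor, was at 250, 353 and 30.01 in ND LP and at 1278, 0.141 and 400.2 in PA LP. Both had the order of Gbp2, Gbp4, Gbp7 and Gbp9, with PA LP replicates 1 and 3 above ND LP replicates 1 to 3 and replicate 2 at or near 0. Leaving out PA LP replicate 2 left r at 0.975 for Il6st and 0.960 for Procr.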

How the data were processed

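The libraries were made from amplified full-length cDNA of sorted cells (SMART-Seq v4). For mapping, the authors used TopHat 2.1.1 with Bowtie 2.2.8.0 on mm10, and for quantification Cufflinks 2.2.1. They deposited FPKM values for 23284 genes, and a second table of size-factor-scaled, rounded counts. For the 9 genes, the ratio of scaled count to FPKM was the same in every library up to rounding. The FPKM thus carry the same scaling. The scaled counts were treated as a score, since the deposited values are not raw counts. They served to work out reads and, in an alternative fit, as the input of limma-voom, which was thus not given raw counts. Of low values, 91.2% to 99.0% lay within 0.05 of a whole multiple of 1 read, which gave 8.80 to 14.55 M reads per library. A value of 3 reads or fewer was taken as the floor, which for the 9 genes is at most 0.136 FPKM. It covers counting error only, because amplified reads are not independent molecules.

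Genes that reached 1 FPKM in 3 or more libraries (12502) were compared on log2(FPKM + 1), with a pseudocount of 1, by limma 3.58.1 (R 4.3.3) with a mean-variance trend. All 12 libraries entered 1 fit of 4 group means. P-values were two-sided and adjusted by Benjamini-Hochberg over all genes, with a threshold of 0.05. A fold change on this scale understates that of low genes. Nothing states that replicates came from separate mice, so p-values measure the spread between these libraries. Scripts were tested on simulated data. The members and lists were chosen with earlier results of these data known. The text names the 9 members, 6 genes of the interferon-gamma pathway, 6 immunity-related GTPases, other Gbp genes and the 5 genes nearest to the members. Casp1, Casp4, Pecam1 and Cdh5 were named after their values were seen, as were Il7r and the list genes called without PA LP replicate 2 or without the 2 libraries with the fewest genes (Cxcl10, Socs3, Gm4951, Tgtp2 and Il18). Some genes of the lists are not reported here by name. Tables were prepared with Python 3.11.15, pandas 2.3.3, numpy 2.4.6 and scipy 1.17.1, and plots with matplotlib 3.10.9. Promoter windows are those of RefSeq on GRCm38.p6.

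Alternatives were upper quartile scaling, other filters, a pseudocount of 0.1, only the libraries of the groups compared, the replicate number or the mouse label as a block, sample quality weights with and without limma-voom, and leaving out each library. Added after the data were seen were leaving out the 2 libraries with the fewest genes, and the comparison of layers over both milks.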

Additional observations from a re-analysis of the deposited data

How the results depend on the processing

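The fold changes of Gbp2, Gbp3, Gbp4, Gbp5, Gbp7, Gbp9 and Gbp10 between the layers kept their direction under every alternative run, in ND, in PA milk and over both milks. Whether they passed the threshold changed between alternatives. The direction of the milk comparisons rested on single libraries. The cause of the changes listed here was not tested.

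Genes called, LP against IEL in ND, numbered 1 with upper quartile scaling and with a pseudocount of 0.1, 0 without a filter and with the mouse label as a replicate block, 2 where 6 libraries had to reach 1 FPKM, 92 with only the libraries compared, 371 with limma-voom, 793 with sample quality weights and 113 without the 2 libraries with the fewest genes. In PA milk they numbered 9, 3 without a filter, 1 with only the libraries compared, 5 with the mouse label, 0 with limma-voom, 134 with weights and 314 without the 2 libraries. The 9 is with upper quartile scaling. Over both milks they numbered 30 without a filter, 58 with a pseudocount of 0.1, 29 with the mouse label, 373 with limma-voom, 982 with weights and 826 without the 2 libraries. Members called rose to 2 (Gbp2 and Gbp4) with weights in ND and without the 2 libraries in PA milk, and over both milks to 6 with weights and 8 without the 2 libraries. The median of the members in PA milk moved to 5.30 with limma-voom.

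Leaving out 1 library at a time gave 0 to 65 genes called in ND, 1 to 289 in PA milk and 37 to 521 over both milks, and 0 to 2 members in PA milk and 0 to 6 over both, the highest of each without PA LP replicate 2. Gbp8 ran from -0.56 to 0.19 in ND, -1.90 to 0.61 in PA milk and -1.05 to 0.21 over both, and Gbp6 from -0.060 to 2.52 in PA milk.

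For PA milk against ND in LP, leaving out 1 library gave 0 to 8 genes called and 0 to 8 members above 0, with log2 fold changes of -1.96 to 1.76 for Gbp2, -2.48 to 0.93 for Gbp3, -2.55 to 1.79 for Gbp4, -1.40 to 1.57 for Gbp5, -1.33 to 1.21 for Gbp6, -1.20 to 2.02 for Gbp7, -1.06 to 2.14 for Gbp9 and -1.41 to 1.029 for Gbp10. Without the 2 libraries, 8 members were above 0 (Gbp2 1.76, Gbp3 0.93, Gbp4 1.79, Gbp5 1.57, Gbp6 1.21, Gbp7 2.02, Gbp10 1.029). Sample quality weights also put 8 above 0 (Gbp2 0.91, Gbp3 0.37, Gbp4 0.85, Gbp5 1.23, Gbp6 0.87, Gbp7 1.25, Gbp10 0.66) and called 3 genes, and limma-voom put 8 above 0 (Gbp2 0.87, Gbp3 0.22, Gbp4 0.93, Gbp5 1.15, Gbp6 0.71, Gbp7 1.04, Gbp10 0.47). None was above 0 with upper quartile scaling (Gbp9 -0.12) or a pseudocount of 0.1 (Gbp9 -0.87).

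In IEL, leaving out 1 library gave 0 to 1 genes called and 2 to 7 members above 0, with Gbp2 from -1.43 to 0.48, Gbp4 from -1.16 to 1.01, Gbp5 from -0.79 to 0.80, Gbp7 from -1.39 to 0.74, Gbp9 from -1.03 to 1.203 and Gbp10 from -0.66 to 0.22. Without the 2 libraries 7 were above 0 (Gbp2 0.15, Gbp4 1.01, Gbp7 0.74, Gbp10 0.031). Gbp5 was -0.035 with upper quartile scaling, -0.12 with a pseudocount of 0.1, -0.21 with weights and -0.89 with limma-voom. Gbp4 was 0.12 with weights, Gbp7 1.05 with weights and 0.85 with limma-voom, and Gbp6 -0.99 with limma-voom.

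For the difference of the milk effect, leaving out 1 library gave 0 to 8 members above 0 and medians of -1.38 to 1.85, with Gbp2 from -1.57 to 2.15, Gbp3 from -1.38 to 2.03, Gbp4 from -2.48 to 1.85, Gbp5 from -1.48 to 1.49, Gbp7 from -0.85 to 2.37, Gbp8 from -1.70 to 0.81, Gbp9 from -1.21 to 1.98 and Gbp10 from -1.20 to 1.23. With limma-voom 8 were above 0 (Gbp2 2.56, Gbp3 5.03, Gbp4 1.11, Gbp5 2.05, Gbp6 1.71, Gbp9 0.12, Gbp10 1.97). The same count was found with weights (Gbp2 1.09, Gbp3 2.23, Gbp4 0.72, Gbp5 1.44, Gbp6 0.44, Gbp9 1.10, Gbp10 0.83) and without the 2 libraries (Gbp2 1.61, Gbp3 1.55, Gbp4 0.77, Gbp5 1.04, Gbp6 0.99, Gbp9 1.38, Gbp10 0.998). Upper quartile scaling gave 2 (Gbp3 0.0056).

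The deviations of same-numbered libraries from their group means correlated at -0.03 to 0.06 between the layers and at -0.12 to 0.07 between the milks. Such values cannot decide whether same-numbered libraries came from the same mouse. With the replicate number as a replicate block, 3 genes were called for PA milk against ND in LP, and the mouse label as a replicate block gave 1 for the difference of the milk effect. Neither block called a member.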
